A study of Mus musculus with 8 samples.

Results

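The 10 imprinted growth genes described here are Ndn (necdin), Peg3, Plagl1, Igf2, Igf2r, Grb10, Dlk1, Mest, Cdkn1c and H19. They were chosen by name, as imprinted genes with known effects on growth, with the ASYM and SYM values of these arrays already in view, above all those of Ndn. A probe set belongs to a member when its RefSeq transcript carries the member's symbol, and probe sets with identical values count as 1. This gave 12 probe sets for 9 of the 10 members, in 9 distinct profiles, out of 22523 probe sets tested and 15653 named genes. No probe set was matched to H19, a maternally expressed non-coding RNA, and its level was not analysed here.

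The study asked which genes differ when cultured mouse fibroblasts divide asymmetrically, with a non-cycling sister at each division, or symmetrically. Total RNA of 8 cultures was hybridized to Affymetrix mouse expression arrays, 1 array a culture. Values are on the log2 scale, so a difference of 1 is a 2-fold difference.

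ASYM is line Ind-8 (3 arrays), a p53-null fetal fibroblast line engineered to make wild-type mouse p53 from a zinc-responsive metallothionein promoter. SYM is line Con-3 (3 arrays), the p53-null control line, which has no p53 to induce. p53SYM is line tI-3 (2 arrays), derived from Ind-8, which makes p53 in zinc and also carries an IMPDH II transgene that p53 does not regulate. All cultures received 65 µM ZnCl2 for 48 hours in medium with 10% dialyzed serum and 5 µg/ml puromycin, and the medium of tI-3 alone also held G418. Each state is 1 line, so a difference between states and a difference between lines cannot be told apart, and tI-3 shares the history of Ind-8. The replicates were separate preparations of a line. The p-values therefore measure the spread between cultures of a line, not between independently made lines.

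Imprinted genes are expressed mainly from the copy inherited from 1 parent, which DNA methylation at a control region marks in the germ line. Many of them act on fetal growth, the paternally expressed ones often promoting it and the maternally expressed ones often restraining it. Several of them are strongly expressed in the embryo and decline after birth.

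Genes known to respond to p53 followed the labels. Cdkn1a, the p53-induced inhibitor of cyclin-dependent kinases, stood at 9.70, 9.70 and 9.59 in ASYM, at 5.73, 5.81 and 6.03 in SYM and at 7.55 and 7.33 in p53SYM. Mdm2, the ubiquitin ligase that limits p53, had line means of 10.90 ± 0.26 (SD, n = 3), 8.90 ± 0.12 (n = 3) and 9.62 ± 0.08 (n = 2) in the same order. Both genes rose in ASYM against SYM, by 3.81 (SE 0.11, limma adjusted p = 1.91e-08) and 2.00 (SE 0.13, adjusted p = 1.09e-05). They also rose in p53SYM against SYM, by 1.59 (SE 0.12, adjusted p = 1.93e-05) and 0.72 (SE 0.15, adjusted p = 0.00492), and lay higher in ASYM than in p53SYM by 2.22 (SE 0.12, adjusted p = 3.58e-06) and 1.28 (SE 0.15, adjusted p = 0.000262).

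Trp53 itself had means of 5.79 in ASYM, 5.25 in SYM and 5.64 in p53SYM. Its rise over SYM was 0.53 in ASYM (SE 0.09, adjusted p = 0.00192) and 0.39 in p53SYM (SE 0.10, adjusted p = 0.0144), where the p53SYM result missed the threshold without p53SYM replicate 2 (adjusted p = 0.109) and with the hybridization-control covariate (0.0616, range over all settings 0.0123 to 0.109). The metallothioneins Mt1 and Mt2, which zinc induces, lay between 12.94 and 13.95 on all 8 arrays. Mt2 was called lower in p53SYM than in SYM, with a difference of -0.51 to -0.18 over all settings, a call lost in 4 of them. Impdh2 had means of 12.19 in ASYM, 12.53 in SYM and 12.36 in p53SYM, so its probe set was not highest in the line with the transgene. It was called lower in ASYM than in SYM, with a difference of -0.36 to -0.32 over all settings. That call was lost without ASYM replicate 1 and SYM replicate 3 together. Whether the Impdh2 probe set measures the transgene is not given in the sources used here.

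Some arrays stood apart. The 3 Affymetrix probe sets for 18S ribosomal RNA averaged 10.63 on SYM replicate 3 and between 5.58 and 6.46 on the other 7 arrays. The 14 bacterial hybridization-control probe sets averaged 9.62 on SYM replicate 3, 9.43 and 9.71 on the p53SYM arrays and 8.98 to 9.16 on the other 5. No ASYM array reached the level of either p53SYM array, so a fit with that level as a covariate can hardly separate it from that comparison. A call of ASYM against p53SYM lost in that fit is therefore no sign that the difference is absent. In ASYM against p53SYM the dimmest 25% of probe sets had a median difference of -0.14, the next 25% one of -0.22 and the brightest 25% one of 0.13. From the dimmest to the brightest 25% the medians in p53SYM against SYM were 0.07, 0.14, -0.06 and -0.13. Those in ASYM against SYM lay between -0.09 and -0.01. ASYM replicate 1 held the lowest ASYM value of Grb10 and of the collagen gene Col3a1. Results that depend on these arrays are given with and without them, and leaving p53SYM with 1 array assumes that the lone array varies like the others.

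A line was taken as dim for a probe set where its mean lay under 4.30, the 25th percentile of the means of all probe sets. As a second mark served the 95th percentile over 36 probe sets of olfactory receptor genes, which lay at 5.00 in ASYM, 5.11 in SYM and 5.31 in p53SYM. Of the 9 measured members, 4 were dim in ASYM (Ndn, Peg3, Igf2 and Cdkn1c), 2 in SYM (Igf2 and Cdkn1c) and 3 in p53SYM (Ndn, Igf2 and Cdkn1c). Under the olfactory mark lay 7 members in ASYM, 5 in SYM and 7 in p53SYM. Above it in every line lay Igf2r and Grb10, and in SYM also Ndn and Peg3. A near-background value places a bound on a difference, not a measurement of it. The arrays measure RNA of whole cultures, where less RNA per cell and fewer expressing cells cannot be told apart.

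**Figure D1:**
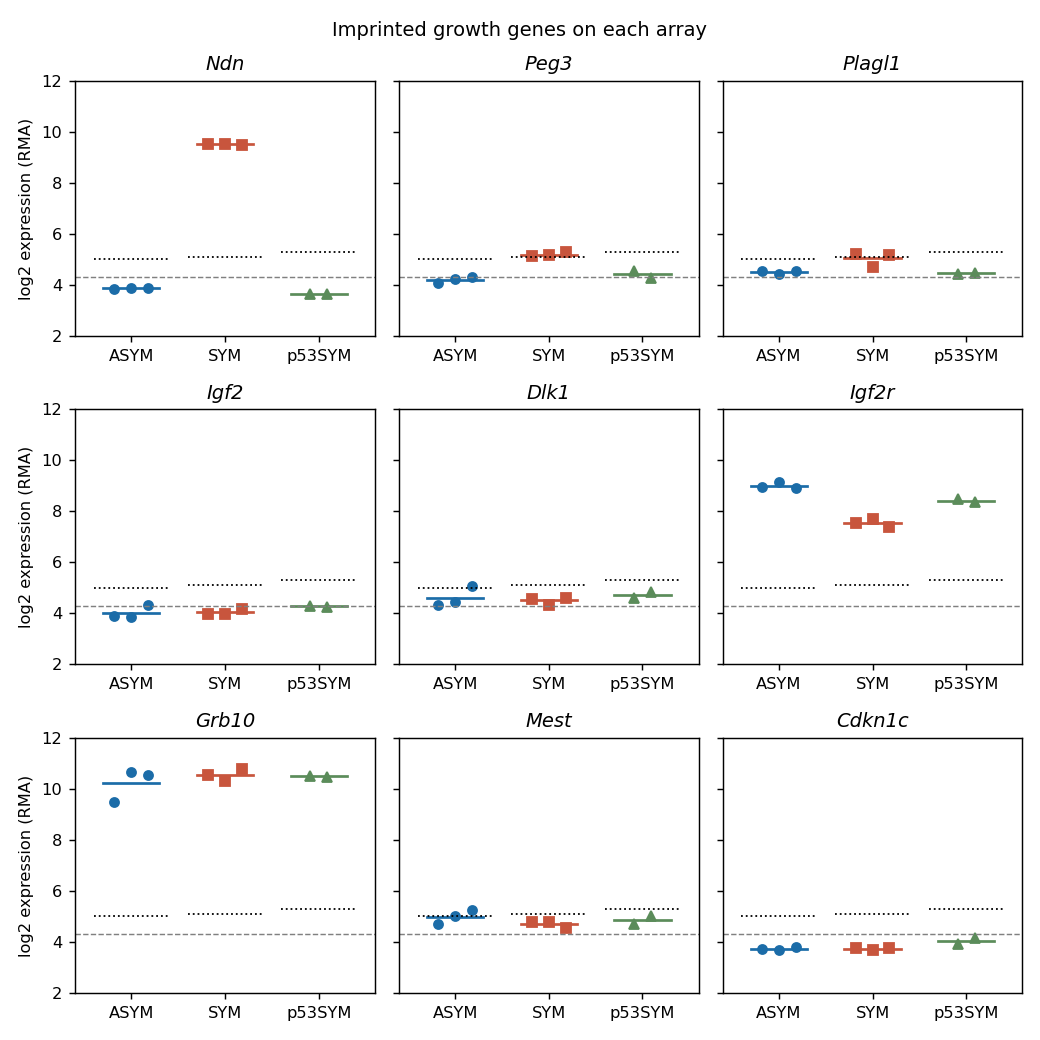
Log2 expression of the 9 measured members on each array, with circles for ASYM (n = 3), squares for SYM (n = 3), triangles for p53SYM (n = 2) and a solid line at each mean. The dashed line is the 25th percentile of all probe sets (4.30) and the dotted lines are the olfactory receptor marks of each line. Ndn is high on the SYM arrays alone, Igf2r differs among all 3 lines, and the line means of Igf2 and Cdkn1c lie under both marks.

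Ndn encodes necdin, a paternally expressed protein of the MAGE family that binds E2F1 and p53 and restrains cell growth, and that is abundant in neurons. Its gene lies in the region whose human counterpart is lost in Prader-Willi syndrome. Ndn stood at 9.55, 9.54 and 9.50 on the 3 SYM arrays. It stood at 3.85, 3.87 and 3.87 in ASYM and at 3.64 and 3.65 in p53SYM. It was thus high on every SYM array and dim on every array of both p53-inducible lines, and SYM overlapped neither. The difference was -5.66 in ASYM against SYM (SE 0.08) and -5.88 in p53SYM against SYM (SE 0.09). Because the low lines are dim, the fold is a lower bound: against the 25th percentile mark SYM was at least 37.5-fold higher than either line, and against the olfactory mark at least 23.1-fold higher than ASYM and 18.6-fold higher than p53SYM. ASYM and p53SYM differed by 0.22 (SE 0.09), with both lines under the marks, which gives no fold. Leaving out any 1 array moved the ASYM against SYM difference only between -5.68 and -5.66. Ndn was chosen for these values, so they are a description and carry no test.

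Peg3 and Plagl1 are zinc finger proteins of the nucleus, both paternally expressed. Peg3 takes part in p53- and TNF-linked cell death and in maternal behaviour, and Plagl1 (Zac1) can arrest the cell cycle. Peg3 stood at 5.13, 5.18 and 5.27 in SYM, at 4.08, 4.24 and 4.30 in ASYM and at 4.56 and 4.28 in p53SYM. All SYM values lay above all others, yet only just above the olfactory mark of 5.11. The difference was -0.99 in ASYM against SYM (SE 0.10), a description for the reason given for Ndn. In p53SYM Peg3 passed the test as lower than SYM, with a difference of -0.77 (SE 0.12, limma adjusted p = 0.00106). The SYM mean of 5.19 lies under the p53SYM olfactory mark of 5.31, so no fold is claimed for it. Every member's test against SYM, this one included, used arrays in view when the members were chosen, as did every test of ASYM against p53SYM. That call held with any 1 array left out, with adjusted p-values over all settings between 0.000376 and 0.0164. ASYM and p53SYM overlapped in Peg3, with a difference of -0.22 (SE 0.12, adjusted p = 0.18).

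Plagl1 stood at 5.22, 4.71 and 5.20 in SYM, at 4.54, 4.45 and 4.54 in ASYM and at 4.44 and 4.49 in p53SYM. The SYM arrays lay above the rest, but SYM replicate 2 lay close to ASYM. The difference was -0.53 in ASYM against SYM (SE 0.13). The difference in p53SYM against SYM was -0.58 (SE 0.14, limma adjusted p = 0.0146), past the threshold. It missed the threshold with either p53SYM array left out (adjusted p = 0.0786 without replicate 1 and 0.0709 without replicate 2) and without ASYM replicate 1 and SYM replicate 3 together (adjusted p = 0.0528), in a range of 0.00192 to 0.0786 over all settings. The means of all 3 lines were under the olfactory marks, so this is not a measured change of Plagl1.

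The promoters of Ndn, Peg3 and Igf2r are shown because these members differ most between the lines. Each run is 300 bases, from 250 before the start of the transcript to 50 after it, from RefSeq on GRCm38.p6, with every CG pair, the site of DNA methylation, in capitals. Ndn is at chr7:62348027-62348326 on the + strand, Peg3 at chr7:6730370-6730669 on the - strand and Igf2r at chr17:12769657-12769956 on the - strand.
Ndn: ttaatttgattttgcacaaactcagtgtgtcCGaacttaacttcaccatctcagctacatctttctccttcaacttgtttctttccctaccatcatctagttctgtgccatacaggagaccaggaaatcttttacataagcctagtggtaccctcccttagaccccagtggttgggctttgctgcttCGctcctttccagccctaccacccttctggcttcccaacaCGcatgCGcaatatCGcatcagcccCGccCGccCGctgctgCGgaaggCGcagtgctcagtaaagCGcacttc
Peg3: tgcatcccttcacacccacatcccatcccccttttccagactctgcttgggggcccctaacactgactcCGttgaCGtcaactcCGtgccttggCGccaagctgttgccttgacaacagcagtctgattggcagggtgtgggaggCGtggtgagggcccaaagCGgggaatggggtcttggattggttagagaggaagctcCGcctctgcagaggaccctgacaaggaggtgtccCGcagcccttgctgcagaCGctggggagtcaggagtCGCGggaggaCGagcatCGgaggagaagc
Igf2r: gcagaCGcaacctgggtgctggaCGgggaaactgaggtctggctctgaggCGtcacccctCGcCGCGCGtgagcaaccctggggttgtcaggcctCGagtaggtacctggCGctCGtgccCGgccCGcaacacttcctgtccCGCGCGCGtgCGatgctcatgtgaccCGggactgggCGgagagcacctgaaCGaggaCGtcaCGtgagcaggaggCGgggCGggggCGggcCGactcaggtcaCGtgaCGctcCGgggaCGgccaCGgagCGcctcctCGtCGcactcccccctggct

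A CG pair occurred in 94.6% of the 32851 promoters of this length in the table, with a median of 7 a promoter. The Ndn promoter held 11, Peg3 13 and Igf2r 34, more than 58.6%, 62.1% and 92.3% of all promoters. In Ndn most of them lie in the part nearest the transcript start. Promoters were found for 8 of the 10 members, in 14 entries, and not for H19 and Cdkn1c. The hexamer TGCCGC, which the imprint-keeping protein ZFP57 binds when methylated, was searched on both strands and occurred in 11.6% of all promoters. Among the members it occurred in the promoter of Plagl1, in 1 of 2 promoters of Grb10, 1 of 4 of Igf2 and 2 of 3 of Mest, the last 2 of which overlap, and it was not found in those of Ndn, Peg3, Igf2r or Dlk1. The p53 response element's 10-base consensus matched 8.36% of all promoters and, among the members, 1 of the 4 of Igf2. A match describes the letters of these windows and says nothing of binding, and no methylation was measured on these arrays.

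Igf2 is the paternally expressed insulin-like growth factor that drives fetal growth through the IGF1 receptor. Its 3 probe sets have identical values, 3.90, 3.87 and 4.32 in ASYM, 3.97, 3.98 and 4.16 in SYM and 4.29 and 4.26 in p53SYM. All line means were dim, so no level of the ligand was measurable above background in any line. The difference was -0.01 in ASYM against SYM (SE 0.13). It was -0.25 in ASYM against p53SYM (SE 0.14, limma adjusted p = 0.2) and 0.24 in p53SYM against SYM (SE 0.14, adjusted p = 0.246). With a replicate block both passed the threshold (0.032 and 0.0426), as the former did without ASYM replicate 3 (0.0315). Between values under the marks these are not measured changes of Igf2.

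Igf2r, maternally expressed, encodes the receptor that carries IGF2 and mannose 6-phosphate-tagged enzymes to lysosomes, and so removes the growth factor. It stood at 8.96, 9.17 and 8.90 in ASYM, at 8.47 and 8.38 in p53SYM and at 7.56, 7.69 and 7.40 in SYM. The order was ASYM, p53SYM, SYM with no overlap between neighbouring lines, and all values were far above background. The ASYM against SYM difference was 1.46 (SE 0.11, a 2.75-fold ratio), given as a description. Igf2r rose in p53SYM against SYM by 0.88 (SE 0.12, 1.84-fold, limma adjusted p = 0.000582), with adjusted p-values of 0.000233 to 0.00834 over all settings. As for Peg3, the SYM values in that test were in view when the members were chosen. Igf2r was higher in ASYM than in p53SYM by 0.58 (SE 0.12, 1.5-fold, limma adjusted p = 0.00575), where the ASYM values were likewise in view. That difference missed the threshold without p53SYM replicate 2 (0.53, adjusted p = 0.056) and with the hybridization-control level as a covariate (0.36, adjusted p = 0.286), in a range of 0.00316 to 0.286 over all settings. The hybridization controls were higher on both p53SYM arrays than on every ASYM array, and their part in this difference was not tested beyond that fit.

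Grb10 encodes an adaptor that binds activated insulin and IGF1 receptors and limits their signal, and is maternally expressed outside the brain. It stood at 9.47, 10.65 and 10.54 in ASYM, at 10.54, 10.32 and 10.78 in SYM and at 10.53 and 10.46 in p53SYM. The lines overlapped, and ASYM replicate 1 lay apart from the other 7 arrays. The difference was -0.32 in ASYM against SYM (SE 0.26) and 0.05 without ASYM replicate 1. It was -0.27 in ASYM against p53SYM (SE 0.29, adjusted p = 0.494), or 0.10 without that array, and -0.05 in p53SYM against SYM (SE 0.29, adjusted p = 0.915, 95% interval -0.70 to 0.59).

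Dlk1, Mest and Cdkn1c complete the measured members. Dlk1 (preadipocyte factor 1) is a paternally expressed membrane protein with EGF repeats that holds back fat cell formation. It stood at 4.35, 4.44 and 5.07 in ASYM, at 4.58, 4.35 and 4.61 in SYM and at 4.60 and 4.83 in p53SYM. The lines overlapped, below the olfactory mark in their means. Mest (Peg1), paternally expressed and related to hydrolases, stood at 4.70, 5.00 and 5.24 in ASYM, at 4.78, 4.76 and 4.54 in SYM and at 4.71 and 5.03 in p53SYM. Its lines overlapped too. No comparison of Dlk1 or Mest that was tested passed the threshold, with adjusted p-values of 0.734 and 0.618 in ASYM against p53SYM and 0.491 and 0.47 in p53SYM against SYM.

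Cdkn1c, maternally expressed, encodes p57Kip2, an inhibitor of cyclin-dependent kinases related to Cdkn1a. Its 2 probe sets have identical values, 3.74, 3.68 and 3.80 in ASYM, 3.76, 3.68 and 3.77 in SYM and 3.92 and 4.15 in p53SYM. All 3 lines were dim, with the p53SYM arrays a little above the rest. The difference in ASYM against p53SYM was -0.30 (SE 0.10, limma adjusted p = 0.0496), just past the threshold and lost without any 1 of 7 arrays, with adjusted p-values over all settings of 0.0414 to 0.581. In p53SYM against SYM it was 0.30 (SE 0.10, adjusted p = 0.0546), with a range of 0.0442 to 0.359. Dim probe sets as a whole shifted the same way, by the -0.14 given above for the dimmest 25% in ASYM against p53SYM, and a difference between values under the marks is not a measured change of Cdkn1c.

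**Figure D2:**
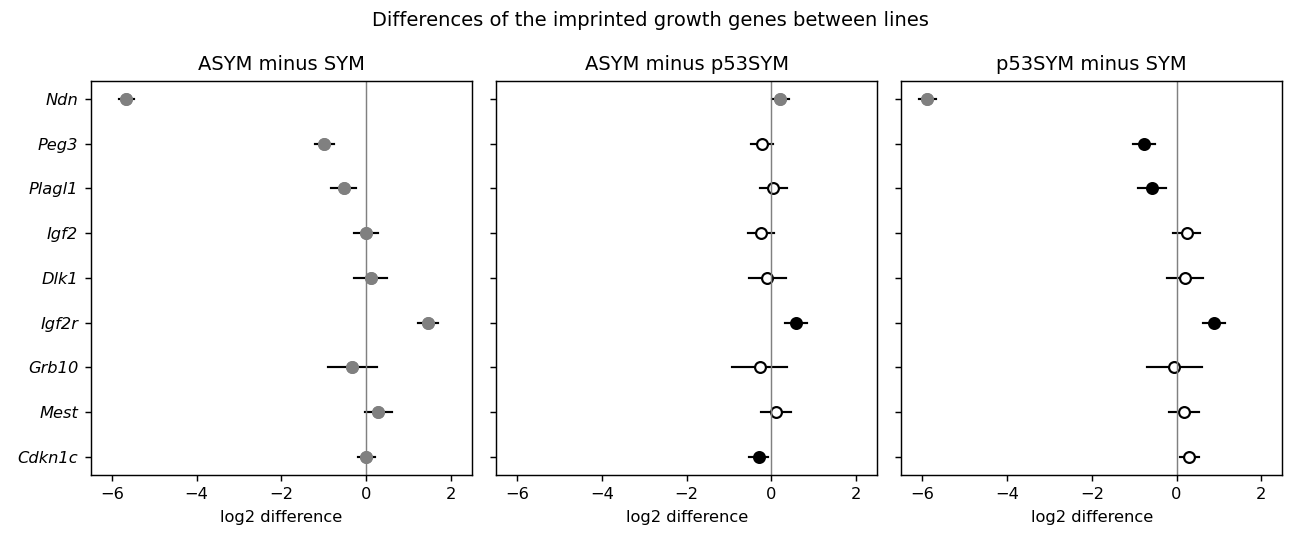
Log2 differences of the 9 measured members in the 3 comparisons, each with its 95% interval from limma over all 8 arrays. Filled black points passed an adjusted p of 0.05, open points did not, and grey points were left without a test, because ASYM and SYM values were in view when the members were chosen and Ndn was chosen for its values. Igf2r lies right of 0 in all 3 panels, and Ndn lies at -5.66 and -5.88 against SYM.

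Counted over comparisons, limma called 4 of the 9 members in ASYM against SYM (Ndn, Peg3, Plagl1 and Igf2r), beside 21.9% of all probe sets, and nothing is read from that count because these values were in view when the members were chosen. In ASYM against p53SYM it called 2 (Igf2r and Cdkn1c), beside 31.1% of all probe sets, so the members' share of 22.2% was below the background. In p53SYM against SYM it called 4 (Ndn, Peg3, Plagl1 and Igf2r, with Ndn chosen for its values), beside 25.4% of all probe sets. The count in ASYM against p53SYM was 0 without p53SYM replicate 2 and 0 with the hybridization-control covariate. With at most 4 calls a comparison these shares say nothing particular of imprinted growth genes. The median absolute difference of the members was 0.32, 0.22 and 0.30 in the 3 comparisons, beside 0.16, 0.24 and 0.21 over all probe sets. The comparisons share arrays, and so are not independent of each other.

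The rank product test, the study's own method, ranks probe sets by their differences between all pairs of arrays and calls those with an estimated share of false positives under 0.05. In ASYM against SYM it called 3 members (Ndn, Peg3 and Igf2r), beside 3.58% of all probe sets, and as with limma nothing is read from that count, since these values were in view when the members were chosen. Without SYM replicate 2 or without SYM replicate 3 it called 2. In ASYM against p53SYM it called 0 of the 9, beside 2.06% of all probe sets, where 1 member had an unadjusted permutation p under 0.05 and limma called 2. The lowest estimated share there was that of Igf2r, 0.369.

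To set the members beside the rest of their class, 66 other imprinted genes were listed from general knowledge, of which 54 had a probe set, in 63 distinct profiles. In ASYM against SYM limma called 15 of the 63, 12 of them higher in ASYM, beside 10.9% of all probe sets called higher, and 3 lower, beside 11%. In ASYM against p53SYM it called 26, of which 9 were higher in ASYM, beside 15.6%, and 17 lower, beside 15.5%. In p53SYM against SYM it called 15, of which 10 were higher in p53SYM, beside 10.2%, and 5 lower, beside 15.1%. The count in ASYM against p53SYM fell to 13 without p53SYM replicate 1, to 10 without p53SYM replicate 2 and to 3 with the hybridization-control covariate. The list's median difference was -0.03, -0.05 and 0.12 in the 3 comparisons, beside -0.06, -0.06 and 0.04 over all probe sets. In all 3 lines 14 of the 63 profiles were dim and 23 lay under the olfactory marks.

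Among these genes 4 passed the test with an estimated difference of at least 2-fold. Slc38a4, an amino acid transporter of liver and placenta that is paternally expressed, stood at 8.42, 8.44 and 8.46 in ASYM, at 9.34, 9.07 and 9.21 in SYM and at 4.85 and 4.41 in p53SYM. It was near background in p53SYM alone, a pattern unlike that of Ndn, which was low in both p53-inducible lines. In p53SYM it fell by 4.58 against SYM (SE 0.14, limma adjusted p = 3.68e-08) and lay 3.81 below ASYM (SE 0.14, adjusted p = 2.39e-07). As lower bounds at the olfactory mark it was at least 14.9-fold higher in SYM and at least 8.79-fold higher in ASYM than in p53SYM. Between ASYM and SYM it differed by -0.77 (SE 0.12, adjusted p = 0.0016).

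Sgce encodes epsilon-sarcoglycan, is paternally expressed and lies beside Peg10 on chromosome 6. It has 2 distinct profiles, 1 of which stood at 9.61, 10.25 and 10.04 in ASYM, at 9.05, 9.06 and 9.09 in SYM and at 10.60 and 10.48 in p53SYM. The lines did not overlap, with p53SYM highest and SYM lowest. It rose against SYM by 0.90 in ASYM (SE 0.14, limma adjusted p = 0.00165) and by 1.47 in p53SYM (SE 0.16, adjusted p = 0.000167), and the other profile gave 0.90 and 1.47 as well. The difference between ASYM and p53SYM, -0.58 (SE 0.16, adjusted p = 0.0219), lost its call without p53SYM replicate 1 (0.107), without p53SYM replicate 2 (0.0799) and with the hybridization-control covariate (0.228), in a range of 0.00914 to 0.228. Of the listed genes in the same cluster, Casd1, an enzyme of sialic acid modification, rose in p53SYM against SYM by 0.72 (SE 0.13, adjusted p = 0.00259) and Pon3, a lactonase, by 0.97 (SE 0.14, adjusted p = 0.000708). Peg10, also paternally expressed, had means of 4.27 in ASYM, 4.42 in SYM and 3.98 in p53SYM and passed no test. Pon2, another listed gene of the cluster, did not pass the test in p53SYM against SYM, with means of 8.09 and 8.26 (adjusted p = 0.325). In ASYM against SYM Pon2 passed at 0.37 (SE 0.10, adjusted p = 0.0231, lost in 6 settings, range 0.0123 to 0.184), Pon3 at 0.39 (SE 0.12, adjusted p = 0.0447, lost in 10 settings, range 0.0289 to 0.194), and Casd1 did not (-0.10, SE 0.12, adjusted p = 0.595). Asb4, Ppp1r9a and Calcr lay under the olfactory mark in every line and passed no test.

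H13, a signal peptide peptidase whose transcript ends differ between the parental copies, has 4 distinct profiles. In 1 of them it stood at 7.23, 7.12 and 7.12 in ASYM, at 6.05, 6.07 and 6.05 in SYM and at 6.59 and 6.56 in p53SYM. The spread within each line was small beside the distance between lines. It rose against SYM by 1.10 in ASYM (SE 0.08, limma adjusted p = 2.29e-05) and by 0.52 in p53SYM (SE 0.09, adjusted p = 0.00235). Another profile gave 1.12 and 0.53. The remaining 2 differed by -0.04 and -0.16 in ASYM against SYM and were not called there (adjusted p = 0.84 and 0.302). The latter lay under the olfactory mark in every line, and the profiles were not tested against each other.

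Atp10a, a phospholipid-transporting ATPase, stood at 6.10, 6.0 and 5.90 in SYM, at 5.07, 4.88 and 5.00 in ASYM and at 4.88 and 4.99 in p53SYM. All SYM arrays lay above all others, whose means were under the olfactory mark. It passed the test as lower than SYM in ASYM (-1.01, SE 0.09, limma adjusted p = 8.9e-05) and in p53SYM (-1.06, SE 0.10, adjusted p = 0.000105), estimates whose size is not measured, since both low lines are near background. These calls held under every setting tried.

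**Figure D3:**
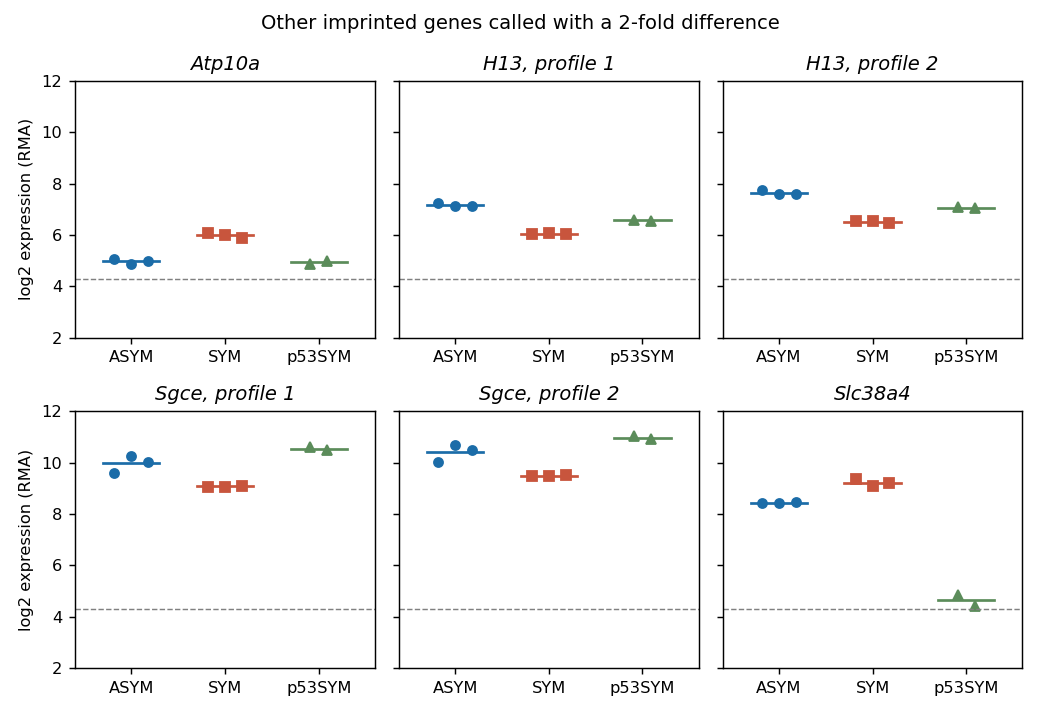
Log2 expression on each array of the 4 other imprinted genes called with an estimated difference of at least 2-fold, with symbols and lines as in the plot of the members and the dashed line at 4.30. H13 and Sgce are each shown in 2 of their distinct profiles. Slc38a4 is near background on the p53SYM arrays alone, at 4.85 and 4.41.

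Atp10a and Ndn lie in the same imprinted region of chromosome 7, so the order of measured genes around Ndn in the RefSeq table was followed, a step chosen after the values were seen. On the Atp10a side come Snurf and Snrpn, whose shared transcript makes a splicing protein, then Ube3a, a ubiquitin ligase, then Atp10a. Snrpn has 2 profiles, 1 of them identical to Snurf, with means of 7.45 in ASYM, 7.08 in SYM and 7.11 in p53SYM. Ube3a had means of 7.35, 7.33 and 7.05. Neither gene passed the test in ASYM against SYM (adjusted p = 0.0514 and 0.916) or in p53SYM against SYM (adjusted p = 0.918 and 0.152). On the other side, Mkrn3 and Peg12, paternally expressed like Ndn, had SYM means of 4.36 and 5.03, near or under the marks, and passed no test. Of the genes named here beside Ndn, Atp10a was the only one called in any comparison.

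Around Igf2r, also chosen after the values were seen, Slc22a2 and Slc22a3, organic cation transporters imprinted in placenta, were near background, with line means between 3.82 and 4.25. Mas1 on the other side had means of 3.37, 3.24 and 3.33 and passed no test. None of these 3 genes was called in ASYM against SYM (limma adjusted p = 0.75, 0.802 and 0.487). Slc22a3 passed the test in ASYM against p53SYM (-0.37, SE 0.09, adjusted p = 0.0131) and in p53SYM against SYM (0.41, SE 0.09, adjusted p = 0.00873), between values under the marks, which is not a measured change. The former call was lost after a further quantile normalization (0.143), with the hybridization-control covariate (0.126) and without either p53SYM array. The latter was lost without p53SYM replicate 2 (difference 0.41).

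Necdin's relatives and partners were followed from fixed lists. Of 15 genes listed for the MAGE family, 6 had a probe set. Maged2 stood at 9.16, 9.90 and 9.63 in ASYM, at 8.07, 8.25 and 8.40 in SYM and at 9.0 and 8.80 in p53SYM. Any link of its level to that of Ndn was not tested. Maged2 was lowest in SYM, where Ndn was highest, with no overlap. It rose in ASYM against SYM by 1.32 (SE 0.17, limma adjusted p = 0.000577), and its rise of 0.66 in p53SYM against SYM (SE 0.19, adjusted p = 0.028) lost its call without p53SYM replicate 1 (0.154), p53SYM replicate 2 (0.0785), SYM replicate 1 (0.0782) or SYM replicate 2 (0.0643) and with the hybridization-control covariate (0.118), in a range of 0.00665 to 0.154. Maged1, which like necdin binds the neurotrophin receptor p75, had means of 11.32, 11.19 and 11.05 and passed no test. Over the family 1 of 6 was called in ASYM against SYM, 3 in ASYM against p53SYM and 2 in p53SYM against SYM, shares of 16.7%, 50.0% and 33.3% beside 21.9%, 31.1% and 25.4% of all probe sets. The 3 calls against p53SYM (Maged2, Magee1 and Nsmce3) were all lost without p53SYM replicate 2 (adjusted p = 0.17, 0.114 and 0.107) and with the hybridization-control covariate (0.214, 0.629 and 0.378), in a range of 0.00436 to 0.629 over all settings.

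Of 10 necdin partners, all measured, 6 were called in ASYM against SYM (4 higher, 2 lower), 3 in ASYM against p53SYM and 5 in p53SYM against SYM, beside 21.9%, 31.1% and 25.4% of all probe sets. The 4 higher in ASYM were Trp53, Nucb1, Nucb2 and Foxo1, and Trp53, counted in both comparisons against SYM, is the gene the p53-inducible lines were engineered to express. The call of Nucb2 was lost in 10 settings, with adjusted p-values of 0.0222 to 0.139, and that of Foxo1 without ASYM replicate 1 and SYM replicate 3 together (0.0761, range 0.00791 to 0.0761). In p53SYM against SYM, Foxo1 lost its call without p53SYM replicate 2 (0.109) and with the hybridization-control covariate (0.0611), in a range of 0.00528 to 0.109. The 3 calls in ASYM against p53SYM (Sirt1, Nucb2 and Ngfr) were all lost with the hybridization-control covariate (adjusted p = 0.113, 0.0604 and 0.489), in a range of 0.000515 to 0.489. In that fit the estimated differences were 0.83, 0.67 and -0.21, and that of Nucb2 was its largest over all settings. Nucb1, a calcium-binding protein, rose by 0.50 in ASYM (SE 0.09, limma adjusted p = 0.00265) and by 0.45 in p53SYM (SE 0.10, adjusted p = 0.00637) against SYM. E2F4, a repressor of cell cycle genes, is encoded by E2f4, which fell by 0.55 in ASYM (SE 0.11, limma adjusted p = 0.00521) and by 0.51 in p53SYM (SE 0.12, adjusted p = 0.0114) against SYM, the latter call being lost without p53SYM replicate 1 (0.0967) and after a further quantile normalization (0.0603), in a range of 0.00931 to 0.0967. E2f1 differed by -0.25 in ASYM against SYM (SE 0.10, adjusted p = 0.0915) and -0.01 in p53SYM against SYM (SE 0.11, adjusted p = 0.958). Sirt1, a deacetylase of p53, stood at 9.02, 9.01 and 8.52 in ASYM, at 9.16, 8.78 and 8.82 in SYM and at 7.85 and 7.73 in p53SYM. It was lower in p53SYM than in either other line, by 1.13 against SYM (SE 0.17, adjusted p = 0.000956) and 1.06 against ASYM (SE 0.17, adjusted p = 0.0016).

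On the IGF side, 8 genes of receptors, substrates and mRNA-binding proteins were listed and all measured, of which 2 were called in ASYM against SYM, 3 in ASYM against p53SYM and 2 in p53SYM against SYM, close to the 21.9%, 31.1% and 25.4% of all probe sets. The 3 calls in ASYM against p53SYM (Igf1r, Irs2 and M6pr) were all lost with the hybridization-control covariate (limma adjusted p = 0.302, 0.752 and 0.338). They were lost in 13, 10 and 6 settings. That of Igf1r was lost without any 1 ASYM or SYM array (0.0505 to 0.103) and without p53SYM replicate 1 (difference 0.19). Those of Irs2 and M6pr were also lost without p53SYM replicate 2 (differences -0.21 and 0.35). In p53SYM against SYM the calls were Irs1, higher in p53SYM, and Igf2bp3, for an mRNA-binding protein, lower. The difference of Igf2bp3 lay between -0.67 and -0.51 over all settings, and its call was lost in none. Igf1r, the receptor through which IGF2 signals, had means of 8.12 in ASYM, 7.95 in SYM and 7.81 in p53SYM. Irs1, its first substrate, stood at 10.96, 11.40 and 11.33 in ASYM, at 10.56, 10.81 and 10.76 in SYM and at 11.57 and 11.55 in p53SYM. It rose in p53SYM against SYM by 0.85 (SE 0.14, limma adjusted p = 0.00161), and its rise of 0.52 in ASYM (SE 0.12, adjusted p = 0.0136) lost its call without ASYM replicate 2 (0.0593, range 0.00367 to 0.0593). M6pr, the smaller mannose 6-phosphate receptor and so a relative of Igf2r in its lysosomal task, rose in ASYM against SYM by 0.41 (SE 0.09, adjusted p = 0.011), against the 1.46 of Igf2r, and lost that call without ASYM replicate 1 and SYM replicate 3 together (0.0925) and with the hybridization-control covariate (0.0566), in a range of 0.00518 to 0.0925.

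Of 12 genes that set or keep imprints and DNA methylation, 11 had a probe set, in 12 profiles. In ASYM 4 profiles fell against SYM and 4 against p53SYM, each 33.3% of the list beside 21.9% and 31.1% of all probe sets, and none was called higher. All 4 calls against p53SYM were lost without p53SYM replicate 1 (adjusted p = 0.0529 to 0.113), without p53SYM replicate 2 (0.0804 to 0.179) and with the hybridization-control covariate (0.264 to 0.503), in a range of 0.00595 to 0.503 over all settings. Uhrf1, which brings the methyltransferase to newly copied DNA, fell by 0.61 in ASYM against SYM (SE 0.11, limma adjusted p = 0.00254). Dnmt1, that methyltransferase, fell by 0.34 (SE 0.10, adjusted p = 0.0352), a call lost without ASYM replicate 2 (0.125), ASYM replicate 3 (0.0561) or any SYM array (0.0613, 0.116 and 0.0671), in a range of 0.0216 to 0.125. It was also lost with the hybridization-control covariate (0.0847) and without ASYM replicate 1 and SYM replicate 3 together (0.0561). Of the other calls against SYM, Dnmt3a (-0.27, SE 0.08, adjusted p = 0.0438) was lost in 12 settings, with a range of 0.0331 to 0.189, and Ctcf (-0.43, SE 0.09, adjusted p = 0.00932) in 1, without ASYM replicate 1 and SYM replicate 3 together (0.0768, range 0.0059 to 0.0768). Between p53SYM and SYM 1 of the 12 profiles was called, Uhrf1, which fell by 0.38 (SE 0.12, adjusted p = 0.0366) and lost its call in 8 settings, among them without p53SYM replicate 1 (0.12), p53SYM replicate 2 (0.149), SYM replicate 2 (0.116) or SYM replicate 3 (0.068), in a range of 0.0231 to 0.149. The median difference of the list was -0.26, -0.25 and 0.03 in the 3 comparisons.

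The genes most like Ndn were taken as the 10 profiles with the highest Pearson r over the 8 arrays, among 123 whose highest and lowest line means differ by at least 2. They were S1pr3, a sphingosine 1-phosphate receptor (r = 0.997), Cd302, a C-type lectin (0.996), Egln3, an oxygen-sensing prolyl hydroxylase (0.992), Cldn1, a tight junction protein (0.986), Rab3b, a GTPase of secretion (0.979), Bhlhe22 (0.976) and Osr1 (0.974), both transcription factors, Ramp2, a receptor partner (0.959), B4galt4, a galactosyltransferase (0.941), and Cth, an enzyme of cysteine synthesis (0.940). S1pr3 stood at 8.41, 8.48 and 8.32 in SYM, at 4.85, 5.08 and 4.70 in ASYM and at 4.50 and 4.89 in p53SYM. Cd302 stood at 8.01, 8.01 and 7.95 in SYM, at 4.32, 4.70 and 4.16 in ASYM and at 4.08 and 4.11 in p53SYM. All 10 were higher on every SYM array than on any other array, with SYM minus ASYM distances smaller than that of Ndn. With 8 arrays in 3 lines, such an r mostly reflects the 3 line means and is given as a description.

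**Figure D4:**
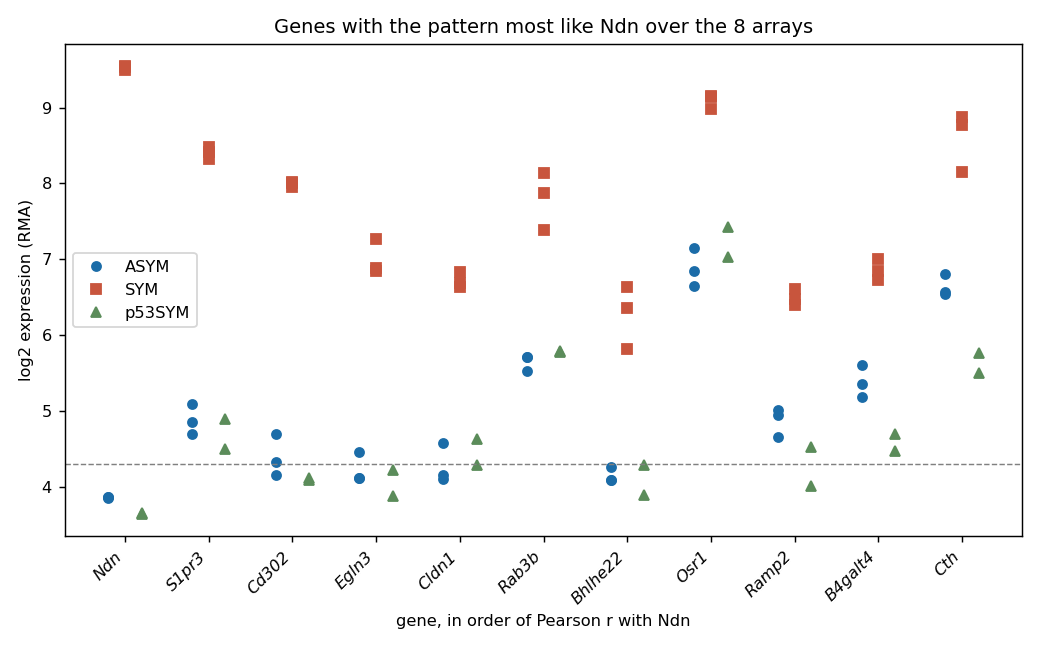
Log2 expression on each array of Ndn and of the 10 genes most like it, in order of Pearson r, with circles for ASYM, squares for SYM and triangles for p53SYM and the dashed line at 4.30. In every gene shown the 3 SYM arrays lie above the other 5.

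The 5 profiles most like Igf2r, among 1051 whose line means differ by at least 1, were Cryab, a small heat shock protein (r = 0.995), Ctsd, a lysosomal protease (0.995), Aldh2, an aldehyde dehydrogenase (0.994), Fam214a (0.994) and Ephx1, an epoxide hydrolase (0.992). Ctsd stood at 11.29, 11.31 and 11.13 in ASYM, at 10.08, 10.17 and 9.96 in SYM and at 10.89 and 10.83 in p53SYM. Ephx1 stood at 11.24, 12.06 and 11.66 in ASYM, at 7.58, 8.05 and 7.77 in SYM and at 10.37 and 10.03 in p53SYM. In each of the 5 the order was ASYM, p53SYM, SYM, as in Igf2r.

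Markers of cell types were read on the same arrays, since Ndn, Dlk1 and Peg3 are also markers of neurons, fat or muscle precursors. The 9 fibroblast markers averaged 10.41, 10.70 and 10.68 in ASYM, 10.23, 10.43 and 10.45 in SYM and 9.97 and 9.91 in p53SYM. Vim, with means of 14.05, 13.88 and 13.65, was the most abundant in ASYM and SYM, and S100a4, at 13.91, in p53SYM. Thy1 was near background in every line, with means of 3.88, 4.19 and 4.56. Of the 9, 3 fell by at least 2-fold in p53SYM against SYM: Col3a1 with a difference of -2.68 (SE 0.37, limma adjusted p = 0.000621), Col1a1 with -1.06 (SE 0.21, adjusted p = 0.00474) and Pdgfra with -1.04 (SE 0.19, adjusted p = 0.00301). Without p53SYM replicate 1 the call of Col1a1 was lost (adjusted p = 0.0518, range 0.000412 to 0.0518). Another 3 were called higher in p53SYM, Pdgfrb by 0.33 (adjusted p = 0.03), Fn1 by 0.28 (adjusted p = 0.0482) and the near-background Thy1, with adjusted p-values over the settings of up to 0.121, 0.235 and 0.165, and the median of the list was -0.015. The 3 genes that fell are lower in the line where Slc38a4 is near background, while Ndn is low in both lines, and the part of cell state in either result was not tested.

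Neuronal markers averaged 4.93, 4.95 and 5.01 in ASYM, 5.04, 5.05 and 5.12 in SYM and 5.17 and 5.19 in p53SYM over 9 profiles. The most abundant, Stmn2, had means of 10.52, 10.66 and 11.28, and 6 profiles (Dcx, Nefl, Snap25, Tubb3 and 2 of Rbfox3) lay under the olfactory mark in every line. Map2 and Syn1 lay above it in every line, at 5.54 and 5.41 in SYM, and none of the 9 profiles was called in ASYM against SYM. In ASYM against p53SYM limma called 4 of them (1 higher and 3 lower in ASYM), 44.4% beside 31.1% of all probe sets. In p53SYM against SYM it called 2 (1 higher and 1 lower in p53SYM), 22.2% beside 25.4%. What part neuronal RNA has in the level of Ndn was not tested. Muscle markers averaged 4.21 to 4.55 over the 8 arrays, with Des the most abundant and the other 6 of 7, Myod1 and Pax7 among them, under the olfactory mark in every line.

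Fat cell markers, listed because Ndn and Dlk1 are known to hold back fat cell formation, averaged 5.35, 5.26 and 5.06 in ASYM, 4.91, 4.82 and 4.72 in SYM and 5.29 and 5.06 in p53SYM over 6 genes. Fabp4, the fatty acid carrier of fat cells and macrophages and the most abundant of them in ASYM and p53SYM, stood at 8.22, 8.07 and 7.31 in ASYM, at 5.92, 5.56 and 5.15 in SYM and at 9.55 and 8.94 in p53SYM. Any link of its level to that of Ndn was not tested. Fabp4 was lowest on the SYM arrays, where Ndn was highest. It rose against SYM by 2.32 in ASYM (SE 0.26, limma adjusted p = 0.000234) and by 3.70 in p53SYM (SE 0.29, adjusted p = 2.93e-05). Cebpa, a transcription factor of fat and other cells, went another way, with means of 7.31 in ASYM, 7.71 in SYM and 5.15 in p53SYM. It passed the test as lower in p53SYM than in SYM (limma adjusted p = 2.94e-06), and because the p53SYM mean is under the olfactory mark the size of that fall is not measured. Pparg, the main transcription factor of fat cell formation, had means of 5.71, 4.88 and 5.55. It passed the test as higher than SYM, where its mean is under the olfactory mark, by an estimated 0.84 in ASYM (SE 0.20, limma adjusted p = 0.013, range 0.00268 to 0.0817) and by 0.68 in p53SYM (SE 0.22, adjusted p = 0.0489). The former call was lost with the hybridization-control covariate (0.0769) and without ASYM replicate 1 and SYM replicate 3 together (0.0817). The latter was lost in 8 settings, among them without SYM replicate 2 (0.0963) and without p53SYM replicate 1 (difference 0.41). Adipoq, Lep and Lpl lay under the olfactory mark in every line.

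Of the markers of other tissues, 3 of 5 haematopoietic profiles (Ptprc, Itgam and Adgre1), 3 of 4 endothelial (Cdh5, Pecam1 and Tek), 5 of 6 epithelial (Cdh1, Epcam, Krt8, Krt14 and Krt18) and all 5 placental lay under the olfactory mark in every line. Their means over the 8 arrays ranged from 4.18 to 4.51 for haematopoietic, from 4.27 to 4.70 for endothelial, from 4.0 to 4.45 for epithelial and from 3.93 to 4.31 for placental markers. The most abundant were Cd3e, Kdr, Krt5 and Hand1, whose line means reached 5.77, 6.60, 5.37 and 5.29. Among the listed imprinted genes known from placenta, Slc22a2, Slc22a3 and Ascl2 were near background as well, whereas Slc38a4 was bright in ASYM and SYM. Phlda2, also known from placenta, lay above the olfactory mark in every line, with means of 5.14 in ASYM, 5.41 in SYM and 5.81 in p53SYM. Many of the other listed imprinted genes were brighter still, among them Cd81, Osbpl5, Blcap, Snrpn and Ube3a.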

How the data were processed

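Expression was compared on 8 arrays, 3 of ASYM, 3 of SYM and 2 of p53SYM, grouped by the sample labels. The authors ran RMA with a custom RefSeq chip definition (version 12) and deposited log2 values, which were used as they stand. The 64 control probe sets were left out, and 22523 were tested. RefSeq's gene table for GRCm38.p6 named 18294 of them (81.2%). The members and gene lists were chosen with earlier results of these data known.

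Differences between the 3 lines came from limma 3.58.1 (R 4.3.3), which took all 8 arrays together and the standard prior. Calls were made at a Benjamini-Hochberg adjusted p under 0.05. The rank product test followed the methods of the study, with 100 permutations within arrays and a limit of 0.05 on the estimated share of false positives. Both were tried on simulated data. Named list genes had an adjusted p under 0.05 and a difference of at least 1 in a comparison, or checked the labels. Others were picked for their role or place after their values were seen. Python 3.11.15, numpy 2.4.6, pandas 2.3.3 and matplotlib 3.10.9 were used for the rest. Alternatives covered the prior, the arrays fitted, a replicate block, scaling, filters, control levels and leaving out each array. The fit without ASYM replicate 1 and SYM replicate 3 together was added after seeing the data. Results on items withheld for evaluation were left out.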

Additional observations from a re-analysis of the deposited data

How the results depend on the processing

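Values that moved under the alternatives are given here. Called members in ASYM against SYM were 2 with a difference of at least 1 and 3 to 4 with 1 array left out. In ASYM against p53SYM they were 1 without ASYM replicate 1 and SYM replicate 3 together (chosen after seeing the data), 0 with the hybridization-control covariate, 1 above the 25th percentile, 1 with the 2 compared groups only, 1 at adjusted p under 0.01, 0 with a difference of at least 1 and 0 to 2 with 1 array left out. In p53SYM against SYM they were 1 with a difference of at least 1 and 3 to 4 with 1 array left out. Called probe sets in ASYM against SYM were 2815 without both arrays, 3062 with the covariate, 2718 at adjusted p under 0.01, 464 with a difference of at least 1 and 3493 to 4637 with 1 array left out. For ASYM against p53SYM these were 1020 with the covariate (65.5% of them higher in ASYM, beside 50.1% without it), 3273 at 0.01, 681 with a difference of at least 1 and 2781 to 7261 with 1 array left out. For p53SYM against SYM they were 3129 at 0.01, 735 with a difference of at least 1 and 3093 to 5625 with 1 array left out. Other imprinted genes called were 3, 1 and 4 in the 3 comparisons with a difference of at least 1, and in ASYM against p53SYM 3 with the covariate and 10 at 0.01. With 1 array left out they were 11 to 15, 10 to 28 and 11 to 16. The rank product called 2 to 3 members in ASYM against SYM and 0 to 0 in ASYM against p53SYM with 1 array left out. Some differences changed sign. In ASYM against SYM, with 1 array left out, Dlk1 was -0.118 to 0.241, Igf2 -0.154 to 0.0706, Cdkn1c -0.0264 to 0.0344 and Grb10 -0.539 to 0.0508. Dlk1 in ASYM against p53SYM was 0.0391 without both arrays, 0.109 after quantile normalization, 0.0899 with the covariate and -0.320 to 0.0391 with 1 array left out. Grb10 was 0.10 there without both arrays and -0.49 to 0.10 with 1 array left out, and in p53SYM against SYM 0.0653 without both arrays, 0.0747 after quantile normalization, 0.0864 with a replicate block and -0.166 to 0.0653 with 1 array left out. Mest in ASYM against p53SYM was -0.0431 to 0.268 with 1 array left out, and Plagl1 there was -0.00072 with a replicate block. With that block 4, 3 and 5 members were called in the 3 comparisons, and Igf2 passed in ASYM against p53SYM (adjusted p = 0.032) and in p53SYM against SYM (0.0426), as it did in the former without ASYM replicate 3 (0.0315). Pairing by replicate number is not stated in the labels. The deviations of same-numbered arrays correlated at 0.27, 0.029 and 0.381 between ASYM and SYM, 0.0093 and -0.225 between ASYM and p53SYM and 0.205 and 0.042 between SYM and p53SYM, and 8 of 14 lay closest to their own number.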
